A study of Homo sapiens with 9 samples.

Results

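A set of 8 genes of glutathione supply and use was followed by symbol, and 8 of 8 were found among the 61487 gene identifiers. They were the cystine importer chain SLC7A11, the 2 subunits of glutamate-cysteine ligase (GCLC and GCLM), glutathione synthetase (GSS), glutathione reductase (GSR), the glutathione peroxidases GPX1 and GPX4, and glutaredoxin (GLRX). The libraries came from SH-SY5Y, an established line derived from a human neuroblastoma, a tumour of the sympathetic lineage, kept for 72 h in MEM/F12 medium with serum. One group received vehicle (0 µM), one 10 µM and one 20 µM CTN, the mycotoxin citrinin. Each group had 3 libraries with replicate numbers 1, 2 and 3, so 9 in all. No label states that replicates came from different cultures; p-values here therefore reflect the spread among these libraries, which may be technical.

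Glutathione is a tripeptide of glutamate, cysteine and glycine, and is the main small thiol of the cell. Cystine enters through the exchanger formed by SLC7A11 with the heavy chain SLC3A2 and is reduced to cysteine, and glutamate-cysteine ligase then makes the first and rate-limiting bond. GCLC is the catalytic subunit and GCLM the modifier that raises its efficiency, and GSS adds glycine. Peroxidases and glutaredoxin spend glutathione, and GSR returns the oxidised form with electrons from NADPH. Many of these genes carry antioxidant response elements, short DNA motifs bound by the transcription factor NRF2 (gene NFE2L2) with small MAF proteins.

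The 250 bases before the start site of both ligase subunits are shown because the 2 genes form 1 enzyme and had different values after citrinin. They are RefSeq sequences on GRCh38.p14, 5′ to 3′ on the gene's own strand, which is the minus strand for both, at chr1:93909431-93909680 for GCLM and chr6:53545102-53545351 for GCLC. Capitals mark matches to the antioxidant response element core TGACNNNGC (N is any base) or to the TATA box TATAAA, searched on both strands.
GCLM: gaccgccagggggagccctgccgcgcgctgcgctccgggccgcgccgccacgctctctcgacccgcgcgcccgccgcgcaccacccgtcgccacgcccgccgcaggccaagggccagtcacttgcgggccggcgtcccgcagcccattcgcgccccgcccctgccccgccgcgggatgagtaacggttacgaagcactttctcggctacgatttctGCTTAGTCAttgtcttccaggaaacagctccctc
GCLC: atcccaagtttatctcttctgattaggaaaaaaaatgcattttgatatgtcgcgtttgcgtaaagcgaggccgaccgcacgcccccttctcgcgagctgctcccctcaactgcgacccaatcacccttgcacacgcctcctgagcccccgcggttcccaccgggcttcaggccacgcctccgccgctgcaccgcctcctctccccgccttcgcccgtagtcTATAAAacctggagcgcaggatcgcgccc
The GCLM window held 1 element core, which reads TGACTAAGC on the opposite strand. The first base of this core on the gene's own strand lies 34 bases before the start site. The GCLC window held 1 TATA box 29 bases before its start site and no element core. Both start sites are those of RefSeq. The GENCODE 29 gene spans given below begin elsewhere on this strand, at 53616970 for GCLC and 93909456 for GCLM. Of 8 members, 5 were in the table of promoters (GCLC, GCLM, GPX1, GPX4 and GLRX), and GCLM was the one of these with the element core in a window of 300 bases, which also takes in 50 bases after the start. The core was in 13.3% of all 35116 windows of that length and the TATA box in 11.5%. Counted by gene, 16.1% of 27305 genes had the core in at least 1 window and 14.0% the TATA box. A match describes letters in a window and not a bound site. Sequence further from the start site was not searched, so a window without a core does not show that the gene lacks one. Whether these motifs bear on the values after citrinin was not tested.

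Levels are given as CPM, the reads of a gene scaled to 1e6 gene reads in all, after TMM scaling, and a library's 3 reads equal 0.153 to 0.191 CPM. Gene reads ran from 15678443 to 19604367 per library, and a member had between 128 and 4016 reads in any library. All 8 members passed the filter on low counts, with 17806 genes in all. Same-numbered libraries deviated together across genes, so each change is given from edgeR's quasi-likelihood fit blocked on replicate number, beside the planned fit without it. "Rose" is used below of a Benjamini-Hochberg adjusted p below 0.05 over all genes in the blocked fit. In the planned edgeR fit none of the 8 members passed in any comparison. There 3 members had an unadjusted p below 0.05 in 20 µM against vehicle, 1 in 10 µM against vehicle and 3 in 20 against 10 µM. DESeq2 without the block called 3, 0 and 0 members, and limma-voom 0 in each. Without the block edgeR called 0% of all genes in each comparison.

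At 20 µM, 3 of 8 members rose over vehicle and none fell. They were SLC7A11, GCLM and GSR, one gene each of cystine entry, the first step of synthesis and the return of oxidised glutathione. The blocked fit called 2.21% of all genes, 0.848% higher and 1.36% lower. The median log2 fold change of the 8 members was 0.11, against -0.00 over all tested genes. The 8 members were chosen with earlier results of these data known. Here and below, their shares beside those of all genes describe the set and are no independent test. The 3 that rose kept their call in each of 17 alternatives with the block, and the other 5 passed in none of these.

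SLC7A11 imports cystine. Vehicle replicates 1, 2 and 3 had 7.49, 8.52 and 7.82 CPM. At 10 µM they had 10.6, 11.5 and 12.0 CPM, and at 20 µM 16.1, 33.8 and 22.8 CPM. The 3 groups did not overlap, and at 20 µM replicate 2 stood highest and replicate 1 lowest. SLC7A11 rose 2.99-fold from vehicle to 20 µM (log2 fold change 1.58 ± 0.15 SE, edgeR adjusted p = 2.20e-06 in the blocked fit and 0.163 in the unblocked one). Relative to the vehicle library of the same number, the level was 2.15, 3.97 and 2.92 times as high at 20 µM. It was 1.41, 1.35 and 1.53 times as high at 10 µM, where the log2 fold change of 0.53 ± 0.16 did not pass (edgeR adjusted p = 1.0).

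GCLM is the modifier subunit of glutamate-cysteine ligase. Vehicle replicates 1, 2 and 3 had 37.0, 48.1 and 53.9 CPM. At 10 µM they had 45.5, 68.2 and 66.2 CPM, and at 20 µM 68.0, 106.4 and 92.1 CPM. Vehicle and 20 µM did not overlap, while 10 µM replicate 1 lay below vehicle replicates 2 and 3. GCLM rose 1.91-fold at 20 µM (log2 fold change 0.93 ± 0.07 SE, edgeR adjusted p = 5.69e-10 in the blocked fit and 1.0 in the unblocked one). By p it ranked 3 among 17806 genes. Replicate 1 was lowest in each group, yet its own level at 20 µM was 1.84 times that of its vehicle library, between the 1.71 of replicate 3 and the 2.21 of replicate 2.

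GSR reduces oxidised glutathione. Its vehicle libraries held 77.3, 73.8 and 83.6 CPM for replicates 1, 2 and 3. The 10 µM libraries held 89.8, 95.3 and 91.8 CPM and the 20 µM libraries 104.6, 114.8 and 110.4 CPM. No group overlapped another. Replicate 3 was highest in vehicle and replicate 2 at both doses. GSR rose 1.41-fold at 20 µM (log2 fold change 0.49 ± 0.06 SE, edgeR adjusted p = 3.00e-06 in the blocked fit and 0.202 in the unblocked one). Its change was smaller than that of GCLM, and its libraries of 1 group lay closer together, with a coefficient of variation of 6.34%, 3.03% and 4.64% in vehicle, 10 µM and 20 µM, against 18.6%, 21.0% and 21.9% for GCLM.

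**Figure D1:**
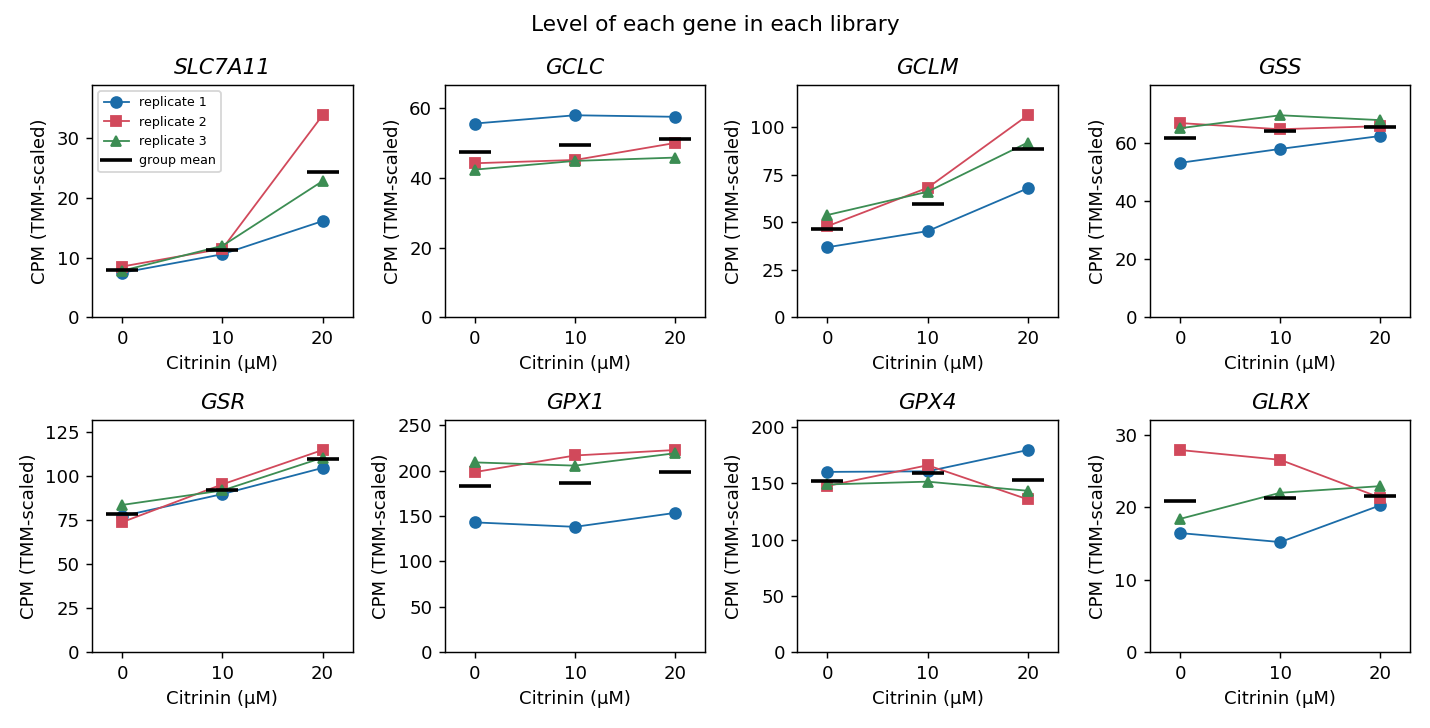
Level of each of the 8 genes (vertical axis, TMM-scaled CPM, from 0) against citrinin dose (horizontal axis, µM); each point is 1 library, lines join libraries of the same replicate number and black bars are group means of 3. SLC7A11, GCLM and GSR climb in each of the 3 lines, while in GPX1 and GCLC the line of replicate 1 stays apart from the other two, lowest in GPX1 and highest in GCLC.

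GCLC, the catalytic subunit, did not pass in any comparison. Vehicle replicates 1, 2 and 3 had 55.6, 44.2 and 42.4 CPM, and the 20 µM libraries had 57.5, 50.002 and 45.8 CPM. Replicate 1 was highest in each group, and the groups overlapped. The log2 fold change at 20 µM was 0.11 ± 0.06 SE (95% interval -0.02 to 0.24; edgeR adjusted p = 0.463 with the block). The interval's upper end lies below the lower end of 0.80 for GCLM.

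The 2 subunits were therefore also compared within libraries, as reads of GCLM over reads of GCLC. The ratio in replicates 1, 2 and 3 was 0.665, 1.09 and 1.27 in vehicle, 0.785, 1.51 and 1.48 at 10 µM, and 1.18, 2.13 and 2.01 at 20 µM. It was higher at 20 µM in 3 of 3 same-numbered pairs, but replicate 1 at 20 µM lay below vehicle replicate 3, so the groups overlapped. The mean log2 difference was 0.82 between 20 µM and vehicle (exact permutation test over samples, 2-sided p = 0.2, where 3 against 3 can give no less than 0.1). A sign flip over the 3 pairs gave an exact p of 0.25, the smallest that 3 pairs allow.

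SLC7A11 was set against its partner chain SLC3A2 in the same way. SLC3A2 had 71.9 ± 7.58 CPM in vehicle and 75.2 CPM on average at 20 µM (SD, n = 3), a log2 fold change of 0.07 ± 0.06 that did not pass (95% interval -0.05 to 0.19; edgeR adjusted p = 0.681 with the block). The ratio of SLC7A11 to SLC3A2 reads in replicates 1, 2 and 3 was 0.105, 0.132 and 0.0981 in vehicle, 0.148, 0.188 and 0.157 at 10 µM, and 0.207, 0.469 and 0.301 at 20 µM. The 3 groups did not overlap. The mean log2 difference between 20 µM and vehicle was 1.48 (exact permutation test, 2-sided p = 0.1, the smallest possible). These 2 ratios were the only ones tested, and neither could pass 0.05 in this design.

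**Figure D2:**
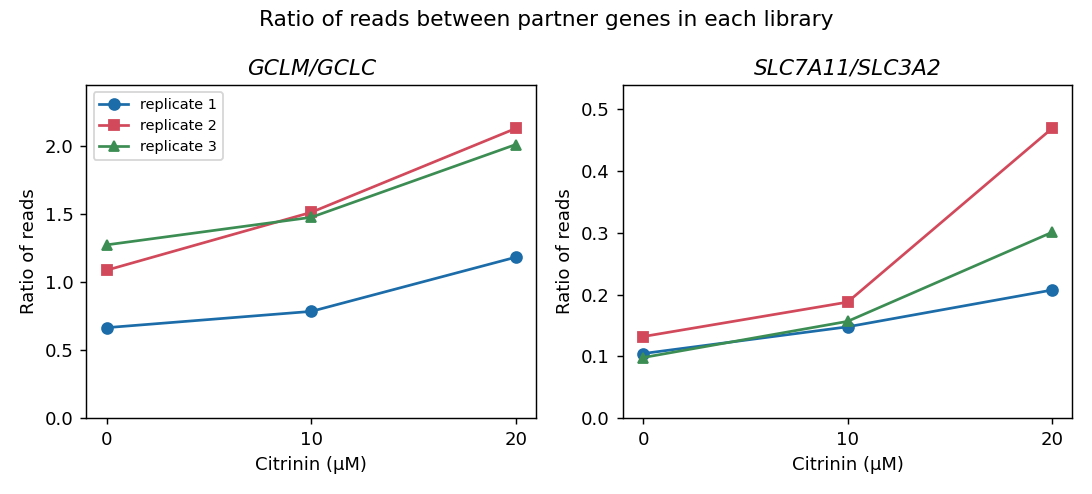
Ratio of reads (vertical axis, from 0) of GCLM to GCLC on the left and of SLC7A11 to SLC3A2 on the right against citrinin dose (horizontal axis, µM); each point is 1 library and lines join the same replicate number. From vehicle to 20 µM both ratios are higher in each of the 3 lines, and GCLM to GCLC is lowest in replicate 1 at each dose.

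Glutathione synthetase and the enzymes that spend glutathione did not pass at 20 µM. GSS, which adds glycine, had 53.1, 66.7 and 64.9 CPM in vehicle replicates 1, 2 and 3 and 62.3, 65.6 and 67.7 CPM at 20 µM. The groups overlapped, and the log2 fold change was 0.09 ± 0.06 (95% interval -0.04 to 0.21). GPX1, a selenium-containing peroxidase of cytosol and mitochondria, had 143, 198 and 209 CPM in vehicle and 153, 223 and 219 CPM at 20 µM. Replicate 1 was the lowest in each group by a margin larger than any difference between doses. GPX1 was higher at 20 µM in 3 of 3 pairs, and its log2 fold change of 0.11 ± 0.05 (95% interval 0.02 to 0.21) did not pass after adjustment (edgeR adjusted p = 0.277 with the block).

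GPX4, the selenium-containing peroxidase that reduces lipid hydroperoxides in membranes, had 160.3, 148 and 149 CPM in vehicle replicates 1, 2 and 3. At 20 µM it had 179.7, 136 and 143 CPM, higher in replicate 1 and lower in the other two. The log2 fold change was -0.00 ± 0.06 (95% interval -0.13 to 0.13; edgeR adjusted p = 1.0 with the block). GLRX, which removes glutathione from protein thiols, had 16.4, 27.9 and 18.4 CPM in vehicle and 20.3, 21.3 and 22.9 CPM at 20 µM. It was higher in replicates 1 and 3 and lower in replicate 2, which gave a log2 fold change of 0.06 ± 0.12 (95% interval -0.20 to 0.32). Of the 8 members, 5 were higher than vehicle at 20 µM in 3 of 3 same-numbered pairs (the 3 that rose, GCLC and GPX1), where 17.5% of all genes were. For 3 members every 20 µM library was above every vehicle library, as for 3.41% of all genes.

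At 10 µM, 1 of 8 members rose and none fell, and the blocked fit called 0.0337% of all genes, each of them higher. That member was GCLM, 1.29-fold higher than in vehicle (log2 fold change 0.37 ± 0.07, edgeR adjusted p = 0.0323 in the blocked fit and 1.0 in the unblocked one). Its call was lost in the blocked fit without any 1 of the 3 vehicle libraries, without replicate 3 of either dose, or without all libraries of number 2 or 3, with adjusted p up to 1.0. The log2 fold change of GCLM stayed between 0.28 and 0.43 over the 17 alternatives with the block. GSR was at 1.18-fold (0.24 ± 0.06, edgeR adjusted p = 0.266 with the block) and SLC7A11 at 1.44-fold. Neither passed, although for both every 10 µM library was above every vehicle library, as for 2.06% of all genes. The remaining 5 members had log2 fold changes from 0.02 to 0.07, and 5 of the 8 were higher in 3 of 3 pairs, against 11.9% of all genes.

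Between 10 and 20 µM the same 3 members rose, where the blocked fit called 0.444% of all genes, 0.18% higher and 0.264% lower. GCLM rose 1.48-fold (0.57 ± 0.06, edgeR adjusted p = 4.00e-05 with the block), the smallest p of all 17806 genes in this comparison. SLC7A11 rose 2.08-fold (1.05 ± 0.14, adjusted p = 0.000517) and GSR 1.19-fold (0.25 ± 0.05, adjusted p = 0.0285). Without the 3 libraries of number 3 none of the 3 passed, with edgeR adjusted p = 0.0692 for GCLM, 0.122 for SLC7A11 and 0.962 for GSR. The GSR call was also lost without vehicle replicate 1 or 3, 10 µM replicate 1 or 3, or 20 µM replicate 2 or 3, each left out alone. SLC7A11 and GSR, 2 of 8, did not overlap between the doses, where 2.37% of all genes were higher without overlap, and 4 of 8 were higher in 3 of 3 pairs, against 13.6%. The other 5 members had log2 fold changes from -0.07 for GPX4 to 0.09 for GPX1.

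The first dose step held part of the 20 µM change of these 3 genes, though only GCLM passed at 10 µM. On the log2 scale, 10 µM held 33.2% of the 20 µM change of SLC7A11, 39.3% of that of GCLM and 48.5% of that of GSR. These comparisons share their vehicle libraries, and whether the shares differ between the genes was not tested. Among same-numbered pairs, replicate 2 gave the highest ratio at 20 µM for all 3 (3.97, 2.21 and 1.55). The lowest came from replicate 1 for SLC7A11 (2.15) and from replicate 3 for GCLM (1.71) and GSR (1.32). With 1 library per dose and number, a difference in response between the numbers could not be tested.

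**Figure D3:**
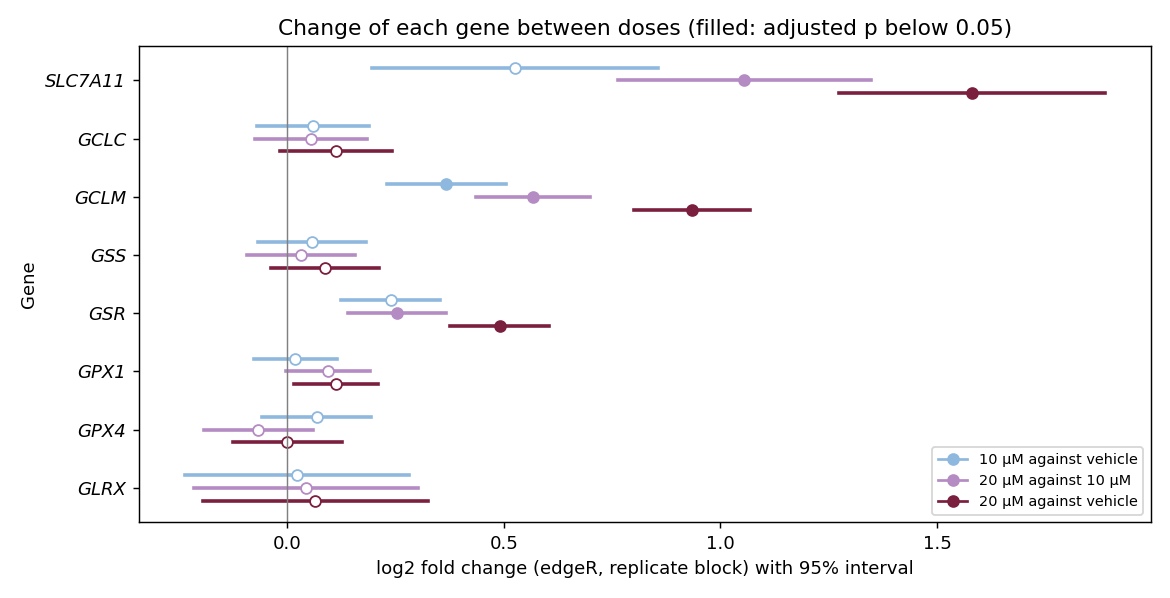
Log2 fold change of each gene (horizontal axis) with its 95% interval (bars) from edgeR with the replicate block, for 10 µM against vehicle, 20 µM against 10 µM and 20 µM against vehicle; filled points have an adjusted p below 0.05. SLC7A11, GCLM and GSR lie to the right of 0 in all 3 comparisons, and the 20 µM values of the other 5 genes lie between -0.00 and 0.11.

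In the blocked fit 7 of 8 members differed by replicate number at an adjusted p below 0.05, where 43.3% of all genes did. GPX1 was the clearest case, with a log2 difference of 0.55 between numbers 2 and 1 and of 0.54 between 3 and 1 (edgeR adjusted p = 1.48e-10). GCLM had 0.55 and 0.51 (edgeR adjusted p = 1.40e-07), and GCLC went the other way, with -0.30 and -0.36 (adjusted p = 4.97e-05). GSR was the member that did not pass, with 0.05 and 0.07 (adjusted p = 0.505). Number went with 95% of the log2 CPM variance of GPX1 and 89.2% of that of GCLC, but for 2.24% of that of GSR. Dose accounted for 92.5% of the variance of GSR, 85.9% of SLC7A11 and 69.3% of GCLM, and for at most 10.3% in the other 5, against a median of 11.4% over all tested genes. These shares include the noise between libraries.

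**Figure D4:**
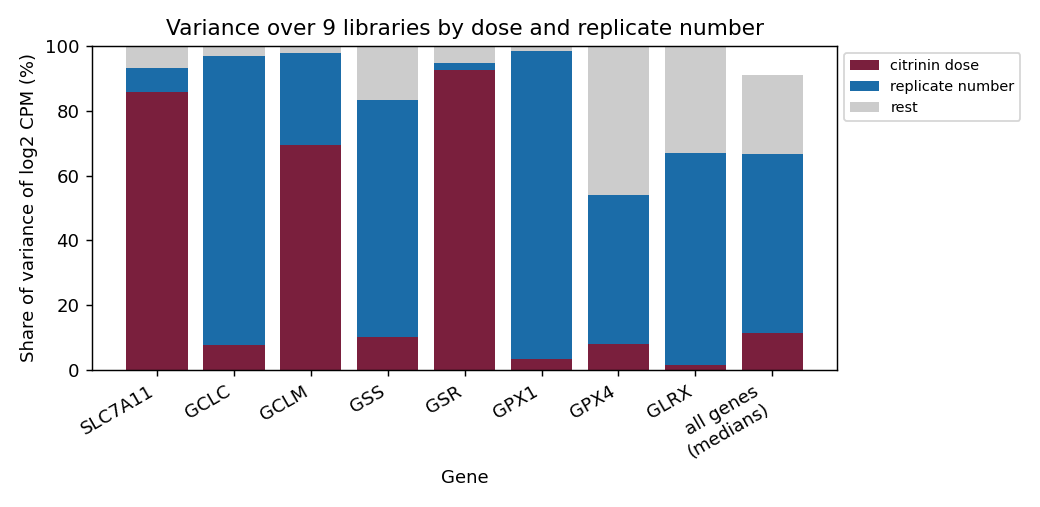
Share of the variance of log2 CPM over 9 libraries (vertical axis, percent) that goes with citrinin dose, replicate number or neither, for each gene (horizontal axis) and as medians over all tested genes, which need not sum to the full height. Dose has 92.5% for GSR and 85.9% for SLC7A11, and replicate number has 95% for GPX1.

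Per length of exons annotated in GENCODE 29, the peroxidases were the most abundant members. In vehicle GPX1 stood at 128 ± 24.8 CPM per kilobase (SD, n = 3) and GPX4 at 75.5 ± 3.39. GSR followed at 20.8 ± 1.32, then GSS at 9.97 ± 1.20, GCLM at 8.55 ± 1.59, GCLC at 5.48 ± 0.83, GLRX at 3.21 ± 0.94 and SLC7A11 at 0.82 ± 0.05 CPM per kilobase. Of the neighbours in this order only GSS and GCLM overlapped between libraries in the joint counts used here. Summed strand counts were 1.18 to 1.29 times the joint count for GCLC and 1 times for GCLM. In vehicle replicate 1 these 2 genes stood at 6.43 and 6.82 CPM per kilobase, so in that library their order holds for the joint count only. Before division by exon length, the vehicle means were 47.4 CPM for GCLC and 46.3 CPM for GCLM. Their order thus rests on the annotated lengths, 8646 bases for GCLC and 5420 for GCLM. GCLM was below GSS in 3 of 3 vehicle libraries, above it in 2 of 3 at 10 µM and above it in 3 of 3 at 20 µM, where it stood at 16.4 ± 3.58 against 10.6 ± 0.44 CPM per kilobase. SLC7A11, the lowest member in each vehicle library, came to 2.51 ± 0.93 CPM per kilobase at 20 µM, where GLRX was at 3.30 ± 0.20. It passed GLRX in 1 of 3 libraries there.

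The wider pathway was covered by 9 lists, chosen with earlier results of these data known. The shares that passed therefore describe the lists and are no independent test. The lists held 96 genes, of which 82 were tested. At 20 µM 4 rose, none fell and 78 did not pass, so 4.88% of those tested rose, against 0.848% of all genes, with a median log2 fold change of 0.05. None passed at 10 µM or between the doses. The 4 were PRDX6, a peroxiredoxin that draws on glutathione (0.17 ± 0.05 SE, edgeR adjusted p = 0.0444 with the block), and MGST1, a membrane-bound glutathione transferase (0.35 ± 0.08, adjusted p = 0.0182). SQSTM1, a cargo receptor that binds the NRF2 inhibitor KEAP1, and the transferrin receptor TFRC, of the list on ferroptosis, rose by 0.30 ± 0.05 and 0.35 ± 0.05 (edgeR adjusted p = 0.000229 and 3.93e-05). MGST1 varied far more by number than by dose, with 7.90, 36.2 and 40.7 CPM in vehicle replicates 1, 2 and 3 and 12.6, 44.5 and 48.2 CPM at 20 µM. The NRF2 gene NFE2L2 (0.13 ± 0.06), KEAP1 (0.18 ± 0.07) and the repressor BACH1 (0.17 ± 0.06) did not pass at 20 µM (edgeR adjusted p = 0.301, 0.259 and 0.164 with the block).

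By function, none of the 10 tested genes of cysteine supply, 9 of glutathione breakdown, 10 of cysteine catabolism, 10 of selenoprotein synthesis or 8 of glutathione transport passed at 20 µM. Their median log2 fold changes lay between -0.01 and 0.07. Of 7 other peroxidases and glutaredoxins 1 rose, of 9 glyoxalases and other glutathione-using enzymes 1, of 9 regulators 1 and of 10 ferroptosis genes 1. Among the 14 genes not tested, DPEP1, DPEP2, GPX5, GPX6 and SLC7A13 had 0 reads in all 9 libraries.

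The genes whose ratios to the same-numbered vehicle library were most like those of SLC7A11 over the 6 citrinin libraries were OSGIN1, HMOX1 and SLCO2B1. Likeness is the root mean square difference of log2 ratios, 0.35, 0.41 and 0.48, over 12299 protein-coding genes of at least 2 CPM. SLC7A11 itself stood 1.17 from no change. For GCLM the genes most like it were AKR1C3, NQO1 and TRIM16L, at 0.10, 0.13 and 0.19, where GCLM itself stood 0.72 from no change. For GCLC, which stood 0.10 from no change, they were ASB7, ARL14EP and ZDHHC20, each at 0.03. At 20 µM NQO1, a quinone reductase, had a log2 fold change of 0.98 ± 0.06 and AKR1C3, an aldo-keto reductase, of 0.90 ± 0.08, beside 0.93 for GCLM. Both were picked for their likeness in these same ratios, so close values follow from the choice.

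The libraries held the markers of their label. All 12 sympathetic neuroblastoma markers had reads, and their summed level was 3267 to 3925 CPM in vehicle and 2743 to 3595 CPM at 20 µM. Of these 12, 8 fell at 20 µM, where 1.36% of all genes did. All 10 mesenchymal markers were also present, at 3468 to 5131 CPM in vehicle and 3827 to 5516 CPM at 20 µM. FN1 alone averaged 3301 CPM in vehicle. Single markers also differed by replicate number. In vehicle replicates 1, 2 and 3 COL1A1 had 458, 66.6 and 274 CPM and CD44 96.3, 142 and 223 CPM. TWIST1 differed less, at 225, 214 and 185 CPM. Of the 10, 4 rose, against 0.848% of all genes. The other 6 did not pass, with log2 fold changes from -0.26 for COL1A2 to 0.05 for FN1. The median of the 10 was 0.02, so the list was mixed. The marker lists too were chosen with earlier results of these data known, so these counts are no independent test. Glial markers summed to 6.55 to 10.0 CPM over all libraries with CDH19 at 0 reads, epithelial markers to 41.9 to 59.1 CPM with KRT5 at 0, and immune markers to at most 1.33 CPM. The part of these marker shifts with dose in the changes of SLC7A11, GCLM and GSR was not tested. In bulk RNA, a change in the share of a cell type cannot be told apart from a change in RNA per cell.

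On GRCh38 with GENCODE 29 annotation, SLC7A11 (ENSG00000151012) spans 138164097 to 138242349 on chromosome 4, GCLC (ENSG00000001084) 53497341 to 53616970 on chromosome 6, and GCLM (ENSG00000023909) 93885205 to 93909456 on chromosome 1. GSS (ENSG00000100983) spans 34928433 to 34956027 on chromosome 20 and GSR (ENSG00000104687) 30678061 to 30727999 on chromosome 8. GPX1 (ENSG00000233276) spans 49357171 to 49358600 on chromosome 3, GPX4 (ENSG00000167468) 1103926 to 1106791 on chromosome 19, and GLRX (ENSG00000173221) 95751319 to 95823005 on chromosome 5. GENCODE 29 gives GPX1 as a polymorphic pseudogene and the other 7 as protein-coding.

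Exons of SLC7A11 share 865 bases with the antisense gene SLC7A11-AS1, and the joint count takes reads of either strand. SLC7A11-AS1 had at most 8 reads in a library in the joint count, which leaves out reads on the shared bases. In GENCODE 29, exons of GCLC share 529 bases with AL033397.1 on the same strand and 7 with AL033397.2 on the other. The deposited counts may rest on another release, since 58312 of their 61487 identifiers are in GENCODE 29. Overlaps and exon lengths may differ there. Adding the counts of both strands keeps reads that the joint count sets aside as ambiguous between opposite strands, but not those shared on 1 strand. This sum gave 1.08 to 1.14 times the joint count of SLC7A11 and 1.18 to 1.29 times that of GCLC. Where the added GCLC reads lie was not tested. GCLC-AS1, antisense by its name, had 1 to 6 reads in a library in the joint count. In that alternative the log2 fold change at 20 µM with the block was 1.54 for SLC7A11 and 0.09 for GCLC. For the other 6 members the 2 counts differed by at most 1.03 times. The GPX1 pseudogene GPX1P1 had 0 to 24 reads in a library, against at least 2390 for GPX1.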

How the data were processed

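RNA-seq counts of 9 SH-SY5Y libraries, 3 per dose, were used, with groups and replicate numbers from the sample titles. Per the submitters' processing notes FastQC, cutadapt, STAR and edgeR were used with GRCh38; no version is recorded, and the annotation release is not stated in these sources. The authors deposited raw read counts per gene in STAR's layout, for both strands together and for each strand. The joint counts were analysed; reads outside genes (6.75% to 7.98%), ambiguous (9.51% to 10.1%), multimapping (2.22% to 2.61%) or unmapped (2.86% to 3.62%) were left out. A normalized table was not used here.

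The 8 members, 9 pathway lists and 5 marker lists were chosen with earlier results of these data known. The named genes are all members, list genes that passed (at most 4 per list), SLC3A2, NFE2L2, KEAP1, BACH1 and the 3 genes most like SLC7A11, GCLC and GCLM. Symbols were matched for 61369 identifiers.

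edgeR 4.0.16 (R 4.3.3; TMM, filterByExpr, robust quasi-likelihood) was fitted to 17806 genes in all 9 libraries, with Benjamini-Hochberg adjusted p below 0.05. The planned fit had 3 groups (6 residual degrees of freedom); a second fit added the replicate number as a block (4). Deviations from group means correlated at 0.457 to 0.685 in all 9 same-numbered pairs (-0.545 to 0.139 otherwise), so the numbers from the titles were taken to pair the libraries. Replicates of each group differed by more than counting noise (lowest chi-square over its degrees of freedom 8.85). Other alternatives were DESeq2 1.42.0, limma-voom (limma 3.58.1), DESeq2 size factors, no count filter, summed strand counts and leaving out libraries. Standard errors are the absolute log2 fold change over the square root of edgeR's F. Log2 CPM for variance shares and likeness used a prior count of 2. The scripts were tested on simulated counts.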

Additional observations from a re-analysis of the deposited data

How the results depend on the processing

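The number of members called depended on the replicate block. At 20 µM against vehicle it was 0 in the planned edgeR fit and 3 with the replicate block, also with the block in DESeq2, limma-voom, edgeR with DESeq2 size factors, without the count filter and with summed strand counts. Without the block DESeq2 called 3 and edgeR without the count filter 1 (SLC7A11); leaving out single libraries gave 0 to 1 without the block (SLC7A11, without 20 µM replicate 1) and 3 to 3 with it. At 10 µM it was 3 with the block and no count filter, 1 in the other blocked fits of all 9 libraries, and 0 to 2 with the block and libraries left out. Between the doses it was 3 in these blocked fits and 0 to 3 with the block and libraries left out. Over all genes, the block called 393, 6 and 79 genes in the 3 comparisons, against 0 in each without it (387, 115 and 210 at an unadjusted edgeR p below 0.05). Without the count filter edgeR called 560, 23 and 188 with the block and 6, 0 and 0 without it, and DESeq2 without the block called 11, 0 and 0.

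With libraries left out, the signs of SLC7A11, GCLM and GSR held in all 3 comparisons, with and without the block. Of the other 5 members, none of them called, those that changed sign in the blocked fits were GPX4 and GLRX in all 3 comparisons, GPX1 at 10 µM and GSS between the doses. GCLC did so only without the block, at 10 µM and between the doses, as did GSS and GPX1 elsewhere. The ranges that follow pool both kinds of fit. At 20 µM the log2 fold change ran from -0.015 to 0.144 for GSS, -0.039 to 0.266 for GPX1, -0.127 to 0.084 for GPX4 and -0.108 to 0.309 for GLRX. For GPX4 it was -2.7e-05 with the block, -0.00398 and -0.00244 in limma-voom without and with it, and -0.000533 with it and no count filter. At 10 µM it ran from -0.075 to 0.188 for GCLC, -0.042 to 0.121 for GSS, -0.126 to 0.202 for GPX1, -0.017 to 0.139 for GPX4 and -0.170 to 0.285 for GLRX. Between the doses it ran from -0.043 to 0.183 for GCLC, -0.040 to 0.092 for GSS, -0.090 to 0.241 for GPX1, -0.193 to 0.042 for GPX4 and -0.175 to 0.249 for GLRX. The cause was not tested.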
